A study of Mus musculus with 3 samples.

Results

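Cholesterol handling in mouse macrophages was followed through 33 genes that make, sense, move, store or export the lipid. The genes were listed by name and matched to the GENCODE M21 gene names, and all 33 were found among 55536 annotated genes, 22028 of them protein-coding. They comprised 19 enzymes of synthesis, 5 genes of sterol sensing, 6 genes of transport, storage, oxysterol formation and uptake control, and 3 genes of efflux.

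RNA was taken from the chromatin fraction of macrophages derived in culture from the bone marrow of C57BL/6J mice. Every library had the same treatment. Lipid A, the lipopolysaccharide moiety sensed through TLR4, was given at 100 ng/ml for 12 h, removed for 12 h and given again at 100 ng/ml for 25 min. The 3 libraries, replicates 1, 2 and 3, began from 1 µg, 250 ng and 500 ng of RNA. The labels list the same donor identifier for all of them and do not say whether they came from separate animals, so the spread below is that between these libraries and may be technical. No untreated sample was analysed here, so the values are levels in 1 state and not responses to Lipid A.

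Cells build cholesterol from acetyl-CoA through mevalonate, isoprenoid diphosphates, squalene and a chain of sterol intermediates. When membrane sterol is low, SCAP carries the SREBP transcription factors (from Srebf1 and Srebf2) out of the endoplasmic reticulum to be cut and activated. The INSIG proteins hold SCAP back when sterol is plentiful, and oxysterols activate the LXR receptors, which drive the exporter genes. Macrophages take up large amounts of lipoprotein and cell debris, and rely on lysosomal transport, esterification and efflux to dispose of the cholesterol.

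The proximal promoters of 4 members that the results turn on are shown first, an enzyme, both ends of the sensing loop and the main exporter. Hmgcs1 (chr13:119690379-119708260, plus strand) encodes HMG-CoA synthase, and Insig1 (chr5:28071363-28078662, plus strand) encodes a SCAP anchor. Srebf1 (chr11:60199089-60222581, minus strand) encodes an SREBP, and Abca1 (chr4:53030787-53159895, minus strand) encodes a sterol and phospholipid exporter. The sequences run 5′ to 3′ on the gene's strand of GRCm38.p6 and come from the RefSeq promoter table of that build. They cover chr13:119690101-119690350 for Hmgcs1, chr5:28071162-28071362 for Insig1, chr11:60220628-60220877 for Srebf1 and chr4:53159896-53160145 for Abca1. The Srebf1 window lies inside the annotated gene, just upstream of the coding transcript Srebf1-201, because Srebf1-204 starts farther upstream (3.26, 0 and 0 expected counts in replicates 1, 2 and 3). Capitals mark matches on either strand to TCACNCCAC (the core of the sterol regulatory element), CCAAT (the NF-Y box) and GGGCGG (the Sp1 box).
Hmgcs1: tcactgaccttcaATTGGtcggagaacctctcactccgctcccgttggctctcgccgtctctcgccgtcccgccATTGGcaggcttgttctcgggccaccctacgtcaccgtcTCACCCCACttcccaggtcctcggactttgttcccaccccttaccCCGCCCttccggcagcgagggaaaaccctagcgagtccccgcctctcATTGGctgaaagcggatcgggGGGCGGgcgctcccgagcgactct
Insig1: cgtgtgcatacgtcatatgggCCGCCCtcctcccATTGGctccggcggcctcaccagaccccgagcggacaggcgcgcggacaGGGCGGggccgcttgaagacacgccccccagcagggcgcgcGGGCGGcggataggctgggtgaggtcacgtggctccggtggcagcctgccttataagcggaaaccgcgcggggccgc
Srebf1: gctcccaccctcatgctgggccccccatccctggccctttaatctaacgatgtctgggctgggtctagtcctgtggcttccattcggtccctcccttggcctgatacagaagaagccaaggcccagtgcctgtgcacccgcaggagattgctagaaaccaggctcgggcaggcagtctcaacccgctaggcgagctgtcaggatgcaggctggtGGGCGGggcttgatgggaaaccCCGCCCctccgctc
Abca1: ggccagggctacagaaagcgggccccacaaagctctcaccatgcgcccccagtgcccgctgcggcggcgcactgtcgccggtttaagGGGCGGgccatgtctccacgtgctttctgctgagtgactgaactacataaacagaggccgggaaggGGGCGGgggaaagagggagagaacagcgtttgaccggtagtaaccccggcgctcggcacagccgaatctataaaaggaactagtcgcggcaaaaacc

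These letters were searched in the 250 bases before each RefSeq start, where 27 of the 33 members had an entry, with 37 starts in all. Fdft1, Fdps, Sqle, Abcg1, Npc1 and Stard4 had no entry and were not searched. TCACNCCAC was found before 1 member start, that of Hmgcs1, 137 to 129 bases upstream, against 1.05% of the 32851 windows in the table. CCAAT lay in 62.2% of the member windows, against 33.8% of all windows and 35.0% of 9940 windows of detected protein-coding genes. It was found at 22 of the 27 members, among them Hmgcs1 with 3 matches and Insig1, but not Abca1. For Srebf1 the matches lay before other starts of the gene and not in the window shown. GGGCGG lay in 67.6% of the member windows, against 57.6% in detected genes and 32.7% overall. TCACGTGA, an E-box found in 0.785% of all windows, was in no member window. The LXR-type direct repeat of AGGTCA with 4 bases between its copies (0.0152% of all windows), and the same repeat without its first base (0.0213%), were likewise in none. A match is a string of letters and not a measured binding site, and these windows do not reach the distal elements of a gene. Only these exact letters were searched, so an element that departs from them by a base or more would be missed. The lack of a match therefore does not show that a window, that of Abca1 included, holds no LXR element.

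Most of the pathway was present in chromatin RNA. Detection required a TPM (abundance scaled for length and to a common library total) of at least 1 in every library. By that rule 30 of 33 members were detected, against 44.0% of protein-coding genes. The exceptions were the enzymes Hsd17b7 and Ebp and the oxysterol-forming enzyme Ch25h. In bulk RNA, fewer cells of a type and less RNA per cell cannot be told apart, so these are levels per library. The libraries held 13502401, 17848798 and 17824176 expected counts in replicates 1, 2 and 3, of which the ribosomal RNA locus on chromosome 17 took 11.1%, 31.8% and 24.8%. A count of 0 in them allows up to 3 counts, or 0.222, 0.168 and 0.168 CPM, which covers counting error only. All 8 macrophage markers examined were detected, with a summed level of 869 to 945 TPM, while none of the 19 markers of fibroblasts, adipocytes, T cells, B cells and neutrophils was, and the sum of each of those lists stayed at or below 1.5 TPM. In the second quantification described below, 3 of these 19 passed the same rule, Cd3d, Cd8a (2.49, 1.82 and 2.28 TPM) and Col1a1 (1.01, 1.34 and 1.42 TPM). The T cell list, led by Cd3d, summed to 16.9, 8.88 and 17.2 TPM there. Of 10 sterol and lipoprotein genes of liver and gut, Soat2 alone was detected, at 3.79 ± 1.24 TPM (SD, n = 3, as for all means below), and Cyp7a1, Cyp8b1, Alb and Abcg5 had no counts.

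By median level, synthesis genes stood lowest and efflux genes highest. The median log2(TPM + 1) was 2.42 ± 0.07 over the 8 mevalonate and isoprenoid genes and 2.64 ± 0.09 over the 11 squalene and sterol genes. It was 4.38 ± 0.15 over the sensing genes, 5.01 ± 0.20 over the transport and storage genes and 6.16 ± 0.34 over the efflux genes. All detected protein-coding genes had a median of 3.56 ± 0.03, so synthesis lay below and the other groups above it. Within a library the efflux median exceeded that of all 19 synthesis genes by 3.74, 3.87 and 3.12 in replicates 1, 2 and 3, a mean difference of 3.58 ± 0.40 on the log2(TPM + 1) scale. Summed over their members, the 3 efflux genes carried 233 ± 28.9 TPM and the 19 synthesis genes 112 ± 8.90 TPM. The 6 genes of transport, storage, oxysterol formation and uptake control summed to 291 ± 38.8 TPM, above the efflux sum in every library.

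**Figure D1:**
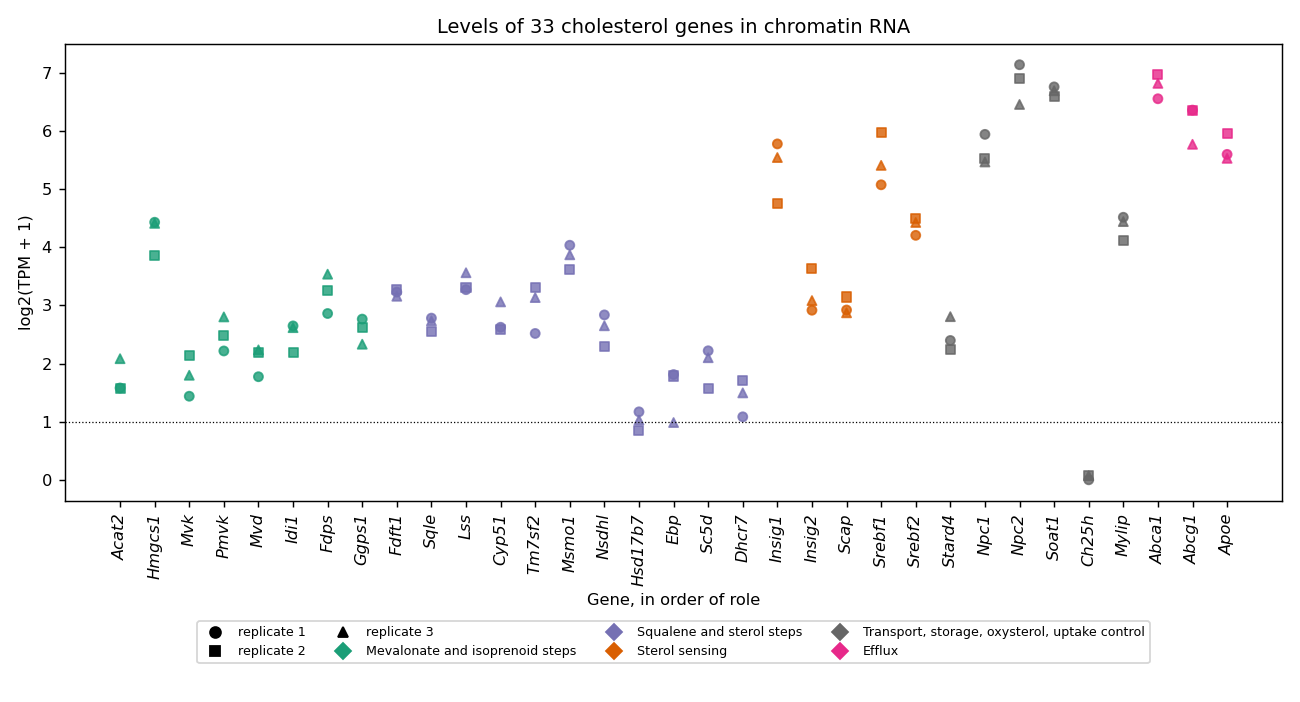
Level of each gene in each library, as log2(TPM + 1), with genes in order of role along the horizontal axis, 1 symbol per replicate and the dotted line at a TPM of 1. Synthesis genes lie mostly between 1 and 4, whereas Npc2, Soat1 and Abca1 lie above 6 in all 3 libraries and Ch25h lies near 0.

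The mevalonate arm was led by its second enzyme. Hmgcs1 had 20.6, 13.6 and 20.3 TPM in replicates 1, 2 and 3, a mean of 18.1 ± 3.98 and the highest of any synthesis gene. Replicate 2 was the low library and the other 2 were nearly equal. Of its exonic bases 557 (12.1%) lie opposite the antisense gene Gm48342, which had 143, 151 and 219 expected counts. Acat2, which condenses acetyl-CoA at the entry to the pathway, had 1.99, 1.98 and 3.24 TPM. A near copy, Acat3, had 0.98, 1.04 and 1.26 TPM, and the expected counts of Acat2 were fractional in every library, so reads were divided between genes. The kinase Mvk (1.71, 3.42 and 2.48 TPM), which phosphorylates mevalonate, and Pmvk (3.65, 4.56 and 5.98 TPM), which phosphorylates the product of Mvk, were both lowest in replicate 1. Mvd, the decarboxylase that follows, had 2.42, 3.59 and 3.71 TPM and was likewise lowest in replicate 1. These low levels rest on few reads, with 37, 76 and 62 expected counts for Mvk.

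The isoprenoid enzymes had means of 4.65 to 8.48 TPM. Idi1, the isomerase of isopentenyl diphosphate, had 5.27, 3.55 and 5.14 TPM and shared the low replicate 2 of Hmgcs1. Fdps, which makes farnesyl diphosphate, had 6.27, 8.54 and 10.6 TPM, with replicate 1 lowest and replicate 3 highest. Ggps1, whose product is used to prenylate proteins, had 5.80, 5.18 and 4.04 TPM. Its exons share 257 bases with Arid4b on the other strand, and because the strand setting is not given in the sources used here, reads from overlapping genes on opposite strands cannot be told apart.

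Among the enzymes from squalene onward, Msmo1 was the highest. Msmo1, a methylsterol oxidase, had 15.4, 11.3 and 13.6 TPM, and it and Hmgcs1 were the only synthesis genes with a mean of 10 TPM or more, the other 17 of 19 lying below. Fdft1, squalene synthase, varied least of all members by TPM, with 8.38, 8.64 and 7.93. Of its exonic bases 774 (18.3%) lie opposite Ctsb, a lysosomal protease gene at 460, 395 and 328 TPM, and its expected counts were fractional in every library. Sqle, squalene epoxidase, had 5.88, 4.87 and 5.66 TPM, and Lss, which cyclises the epoxide to lanosterol, had 8.66, 8.94 and 10.8 TPM. Both stayed within 1.25-fold across the libraries. Cyp51, the lanosterol demethylase, had 5.17, 5.03 and 7.35 TPM, so that replicate 3 alone stood out.

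The later sterol steps included the 2 synthesis genes that were not detected. Tm7sf2, a sterol reductase, had 4.73, 8.92 and 7.79 TPM, lowest in replicate 1, and shares 532 exonic bases with Vps51 on the same strand. Nsdhl, a dehydrogenase of sterol demethylation, had 6.15, 3.88 and 5.28 TPM, lowest in replicate 2. Hsd17b7, the ketoreductase of the same reaction series, had 1.25, 0.80 and 1.04 TPM and so missed the detection rule through replicate 2 only. Ebp, a sterol isomerase, had 2.51, 2.45 and 0.98 TPM and missed it through replicate 3, on 25, 33 and 16 expected counts. Its highest and lowest libraries differed 2.56-fold. Sc5d, a sterol desaturase, had 3.66, 1.98 and 3.29 TPM, and Dhcr7, the reductase that yields cholesterol, had 1.12, 2.26 and 1.82 TPM.

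Sterol sensing was uneven between its members. Insig1 had 54.0, 25.97 and 45.7 TPM in replicates 1, 2 and 3, on 986, 601 and 1155 expected counts. Replicate 2 was the low library and lay well under the other 2. Srebf1 had 32.8, 62.0 and 41.5 TPM, on 659, 1477 and 1263 counts, and was highest where Insig1 was lowest. Their means, 41.9 ± 14.4 and 45.4 ± 15.0 TPM, were alike, but the ratio of Insig1 to Srebf1 was 1.65, 0.419 and 1.10 in replicates 1, 2 and 3. Which of the pair was the more abundant therefore changed between libraries. In the second tables described below Insig1 was again the higher in replicate 1 and Srebf1 in replicate 2. In replicate 3 Srebf1 was the higher there (63.0 against 45.6 TPM), as it was by counts.

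Srebf2, the SREBP gene best known for the cholesterol enzymes, had 17.5, 21.7 and 20.5 TPM, and Srebf1 exceeded it 1.87-, 2.86- and 2.02-fold. Insig2, the second anchor, had 6.56, 11.5 and 7.48 TPM, and Insig1 exceeded it 8.23-, 2.26- and 6.11-fold. Scap had 6.58, 7.85 and 6.33 TPM, within 1.24-fold. Scap was the lowest of the 5 by mean, and its range overlapped that of Insig2. By TPM of the gene table Insig2 lay just under Scap in replicate 1 and above it in replicates 2 and 3. In the second tables Scap had 12.8, 12.0 and 14.3 TPM, under Insig2 in each library.

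Lysosomal export and esterification genes were among the most abundant members. Npc2, the luminal sterol carrier of the lysosome, had 140.3, 118 and 87.0 TPM, a mean of 115 ± 26.8 that was higher than in 95.8% of detected protein-coding genes. Npc1, the membrane protein that receives its cargo, had 60.6, 45.4 and 43.3 TPM, and Npc2 exceeded it 2.32-, 2.60- and 2.01-fold. Replicate 1 was highest for both. Soat1, which esterifies cholesterol for storage, had 107.5, 95.9 and 102.6 TPM and varied only 1.12-fold. Npc1 also shares 511 exonic bases with Rmc1 on the other strand, a gene at 41.5 to 47.1 TPM.

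The other genes of the group differed widely. Mylip, a ubiquitin ligase that targets lipoprotein receptors for degradation, had 21.9, 16.5 and 20.8 TPM. Stard4, a soluble sterol carrier, had 4.27, 3.73 and 6.00 TPM, highest in replicate 3. Ch25h, which oxidises cholesterol to an antiviral oxysterol and is known as an inflammatory response gene in macrophages, had 0, 1 and 1 expected counts. Its count is below 3 in every library, and its level was listed at 0, 0.05 and 0.05 TPM.

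Efflux genes stood high in all libraries. Abca1, which loads lipid onto lipid-poor apolipoprotein, had 93.2, 124 and 112 TPM, a mean of 109.8 ± 15.6 that exceeded 95.6% of detected protein-coding genes. Its 11973, 19633 and 18869 expected counts were the most of any member in each library. Abcg1, which exports sterol to mature lipoprotein particles, had 81.3, 80.5 and 53.7 TPM, with replicate 3 low. The ratio of Abca1 to Abcg1 was 1.15, 1.54 and 2.09, so Abca1 was the higher in each library of the gene table by a varying margin. In the second tables described below Abcg1 was the higher in replicate 1 (123 against 113 TPM). Abca1 was the higher there in replicates 2 and 3 (126 and 123 against 112 and 76.6 TPM). Apoe, the secreted apolipoprotein that accepts exported lipid, had 47.5, 61.0 and 45.3 TPM, highest in replicate 2. Against the leading enzyme of synthesis, Abca1 exceeded Hmgcs1 4.53-, 9.16- and 5.53-fold.

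Ordered by mean level, Npc2, Abca1 and Soat1 came first, and their ranges over the libraries overlapped one another. The lowest value of the 3, 87.0 TPM for Npc2 in replicate 3, was above every value of the next gene, Abcg1. In the second tables described below this order changed, with Soat1 first at 159 ± 33.7 TPM, and Abcg1 (123, 112 and 76.6 TPM) overlapped Npc2 (168, 104 and 92.5 TPM). Abcg1, Apoe, Npc1, Srebf1 and Insig1 followed with overlapping ranges, and these 8 genes were those with a mean of at least 40 TPM. Srebf2, Mylip and Hmgcs1 formed the next step, also overlapping, with no value above 21.9 TPM and so below the lowest Insig1 library. In all, 14 of the 30 detected members stayed within 1.5-fold between their highest and lowest library, against 65.2% of detected protein-coding genes. Those that exceeded 2-fold were 2, Insig1 (2.08-fold) and Dhcr7 (2.02-fold), against 9.15% of detected genes.

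A further 40 genes of the pathway and its neighbours, from a list outside the 33, were read in the same way, and 36 of them were detected, with a median of 13.0 TPM. The highest were the scavenging receptor gene Lrp1 (267 ± 54.9 TPM), the sterol transfer gene Gramd1a (124 ± 28.7 TPM), the scavenger receptor gene Msr1 (115 ± 22.5 TPM), Gramd1b (72.3 ± 7.92 TPM) and the endosomal sterol carrier gene Stard3 (69.7 ± 11.3 TPM). Those not detected included Vldlr (0, 0.02 and 0.04 TPM), Scd1 (0.06, 0.71 and 0.13 TPM) and Cyp7b1, which had no counts in any library.

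The spread between libraries was examined for the pathway as a whole. The biological coefficient of variation (BCV), the between-library spread in counts beyond sampling, was estimated with edgeR over 14193 genes, and 32 members passed its filter on low counts, all but Ch25h. Of these, 16 lay above the median BCV of 0.203, against 50.0% of all genes by construction. The 16 were unevenly placed, with 14 of 19 synthesis genes and 2 of 5 sensing genes (Insig1 and Srebf1) but none of the 5 transport genes or 3 efflux genes. Ebp (0.267), Sc5d (0.252) and Fdps (0.246) varied most, and Npc1 (0.166), Fdft1 (0.175) and Sqle (0.177) least. Synthesis genes also had the lowest levels, as given above, and the part of depth in that pattern was not tested. Without a filter on low counts 2 members lay above the median of the genes then tested, and without replicate 2 the count was 10.

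Synthesis genes did not move as 1 block between libraries. Deviations were taken as log2 CPM minus the gene's mean over the libraries. Here CPM are counts scaled to library totals adjusted by TMM factors, which were 1.09, 0.936 and 0.982 in replicates 1, 2 and 3. The median over the 19 synthesis genes was 0.03, -0.01 and 0.17 in replicates 1, 2 and 3, against values of 0.01 or less in size over all genes. The library that was lowest on this scale differed between synthesis genes. Every gene has a lowest library, and the counts below are not far from the shares over all genes. Replicate 2 was lowest for 8 of them (Acat2, Hmgcs1, Idi1, Sqle, Msmo1, Nsdhl, Hsd17b7 and Sc5d), as it was for 14 of 32 members and 33.9% of all genes. Replicate 1 was lowest for another 8 (Mvk, Pmvk, Mvd, Fdps, Lss, Cyp51, Tm7sf2 and Dhcr7), as it was for 12 of 32 members and 38.4% of all genes. For Cyp51 replicates 1 and 2 were nearly equal (-0.133 and -0.126). Replicate 3 was lowest for 3 (Ggps1, Fdft1 and Ebp), as it was for 6 of 32 members and 27.7% of all genes. Replicate 3 was highest for 10 of 19 synthesis genes and 13 of 32 members, against 27.4% of all genes.

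**Figure D2:**
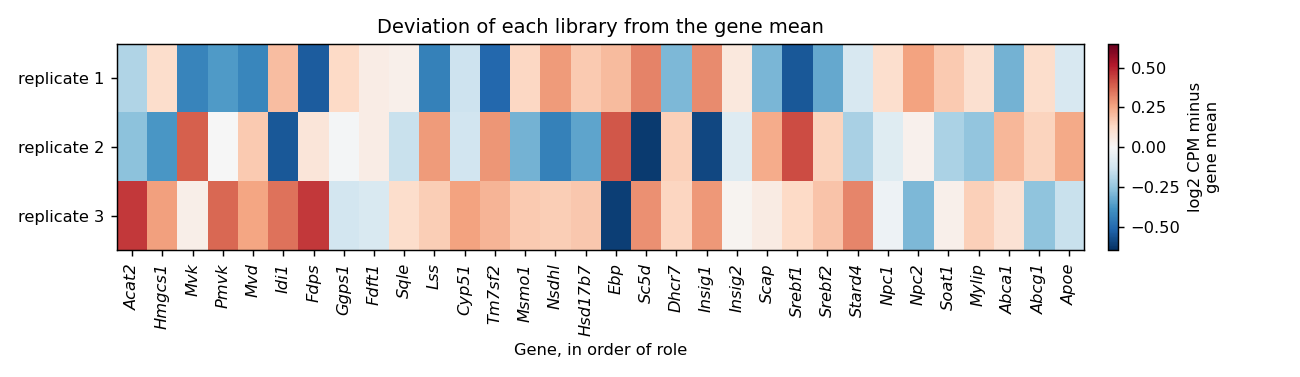
Deviation of each library (rows) from the gene's mean (log2 CPM minus gene mean, colour scale) for the 32 members with enough counts, in order of role. Insig1, Idi1 and Sc5d are low in replicate 2 (-0.59, -0.55 and -0.62), whereas Srebf1, Fdps and Tm7sf2 are low in replicate 1 (-0.55, -0.54 and -0.51).

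The synthesis genes lowest in replicate 2 and those lowest in replicate 1 also differed in base composition. The 8 genes lowest in replicate 2 had transcripts of 41.9% to 49.6% GC, and the 8 lowest in replicate 1 had 46.2% to 59.6% GC, with Cyp51 the one under 50%. Across the 19 synthesis genes the correlation of GC content with the deviation was -0.83 in replicate 1, 0.76 in replicate 2 and 0.03 in replicate 3 (Pearson r). Over 14185 genes with a GC value it was -0.45, 0.42 and 0.10. Because each gene's deviations are centred on its own mean, the opposite signs in replicates 1 and 2 are not separate observations. These are descriptions across genes that share libraries, and genes are not independent replicates. Starting RNA and the share of the ribosomal RNA locus also differed between replicates 1 and 2, as given above, and their part in the deviations was not tested.

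Taking out the GC and length trend left some genes nearly where they were and moved others. Insig1 kept 0.28, -0.58 and 0.28 in replicates 1, 2 and 3, against 0.31, -0.59 and 0.28 before. Srebf1 shrank to -0.30, 0.22 and 0.06, against -0.55, 0.42 and 0.13 before, so its libraries kept their order at a smaller size. Mvk shrank to -0.12, 0.14 and -0.02, against -0.43, 0.39 and 0.04. Idi1 (-0.42) and Sc5d (-0.51) remained low in replicate 2 after removal. Among the synthesis genes the correlation with GC content was still -0.55 in replicate 1 and 0.49 in replicate 2 after it. Among the efflux genes, the replicate 1 deviation of Abca1 was -0.31 both after and before, while that of Apoe was 0.20 after and -0.10 before.

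**Figure D3:**
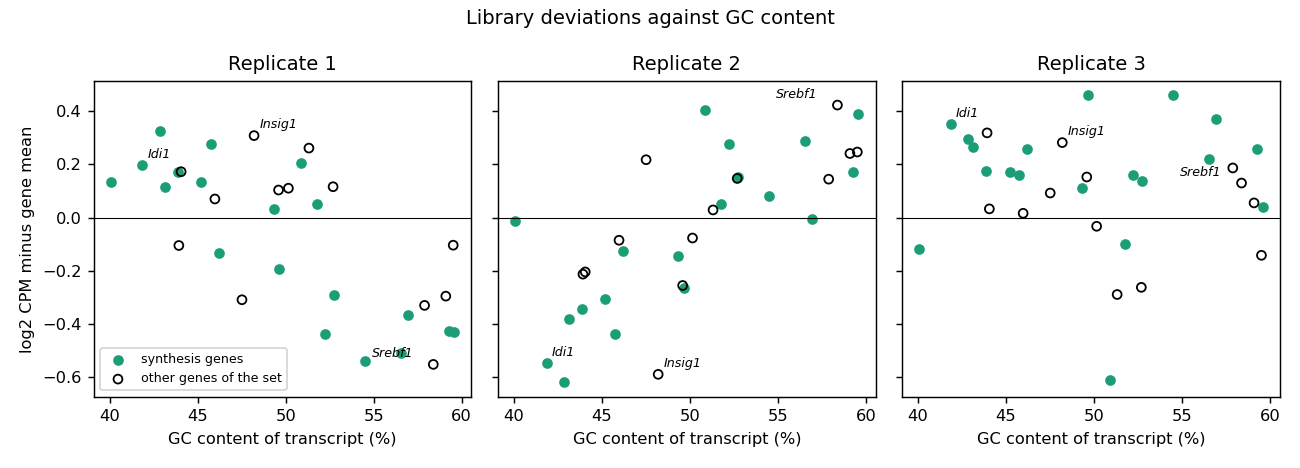
Deviation of each gene (log2 CPM minus gene mean, vertical axis) against the GC content of its transcript (percent, horizontal axis) in replicates 1, 2 and 3, with synthesis genes filled and the other members open. The points slope down in replicate 1 and up in replicate 2, and Insig1 lies above zero in replicate 1 and near the bottom in replicate 2.

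The gene levels above depend on how reads were assigned to transcripts, and a second set of transcript tables was deposited. Summed per gene, its TPM followed those of the gene table across the 33 members (Pearson r = 0.965 on log2 of mean TPM + 1, a description across genes). Of the 30 detected members 4 differed by over 2-fold in mean, against 17.6% of detected protein-coding genes. All 4 were higher in the second tables, but so was every other member except Nsdhl (0.938-fold) and Apoe (0.818-fold). The macrophage markers also summed higher there, to 1532, 1238 and 1246 TPM in replicates 1, 2 and 3, against 934, 945 and 869 TPM. The direction is thus not particular to these 4 genes. Stard4 had 17.8 TPM there against 4.67 in the gene table, Dhcr7 had 6.38 against 1.73, Ggps1 had 16.9 against 5.01 and Mvd had 8.78 against 3.24. Hsd17b7, not detected in the gene table, was 2.42-fold higher and passed in the second tables, where 32 members were detected.

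**Figure D4:**
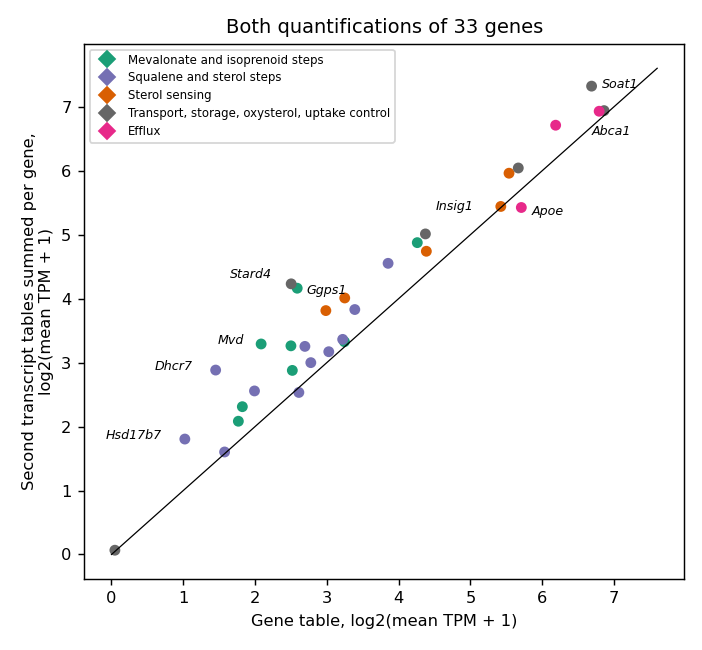
Mean level of each gene in the second transcript tables summed per gene (vertical axis) against the gene table (horizontal axis), both as log2(mean TPM + 1), coloured by role, with the line of equality. Stard4, Dhcr7, Ggps1 and Mvd lie well above the line, and Apoe lies a little below it.

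For each of these 4 genes a transcript outside the protein_coding class made up part of the gap. Stard4-204, annotated retained_intron, had 15.2, 9.05 and 12.3 TPM in the second tables and 0.75, 0.70 and 1.76 TPM in the first. Dhcr7-206, a processed_transcript, had 3.89, 4.70 and 4.30 TPM in the second tables and 0, 0 and 0.13 TPM in the first. Ggps1-209, annotated nonsense_mediated_decay, had 9.03, 3.90 and 4.94 TPM in the second tables and 0.45, 0.38 and 0 TPM in the first. Mvd-202, of the same class, had 8.17, 3.14 and 2.46 TPM in the second tables and 0, 0 and 0.20 TPM in the first. The coding transcript of Mvd was closer, with 2.36, 5.44 and 4.78 TPM for Mvd-201 in the second tables and 2.42, 3.59 and 3.50 TPM in the first. Dhcr7 lay below the lower bound of the deposited interval around its TPM in every library, with bounds of 1.98 to 7.90 TPM in replicate 1. Ggps1 lay below its own in 1 library, and Stard4 and Mvd in none. In replicate 1 the second tables gave Stard4, Ggps1 and Mvd 22.3, 20.0 and 10.5 TPM. Those values were above the upper bounds of 5.29, 9.17 and 2.92 TPM. Of the 30 detected members, 21 lay within their interval in every library, against 84.5% of detected protein-coding genes. Dhcr7 alone lay below in every library (1.11% of detected genes did), and Abca1 and Npc2 lay above in every library (7.31% did).

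The leading transcript depended on the tables for many members, at shares near those of other genes. The transcript with the highest TPM was the same in both sets of tables in every library for 10 of 30 detected members, against 32.1% of detected protein-coding genes with several transcripts. The 10 were Pmvk, Fdps, Fdft1, Cyp51, Nsdhl, Insig1, Npc1, Mylip, Abca1 and Apoe. It differed in every library for 11, against 27.8% of those genes, namely Hmgcs1, Mvk, Ggps1, Lss, Tm7sf2, Sc5d, Dhcr7, Insig2, Srebf1, Stard4 and Npc2.

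Of the 30 members 7, Hmgcs1, Sqle, Lss, Msmo1, Insig1, Npc2 and Abcg1, had a retained_intron transcript in the lead in every library of the first tables, against 25.8% of detected genes led by any transcript that is not protein_coding. For Insig1 the leading form depended on the measure. Insig1-202 (757 bases, retained_intron) had 31.2, 13.5 and 23.3 TPM from 229, 109 and 207 expected counts, whereas the coding Insig1-201 (2697 bases) had 22.8, 12.5 and 22.4 TPM from 757, 492 and 948 counts. The shorter form thus led by abundance per length and the coding form by reads. Both forms were lowest in replicate 2. The same held for Abcg1, where Abcg1-202 (1085 bases) led by TPM and the coding Abcg1-201 (5832 bases) led by counts, at 1826, 2141 and 1791.

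Npc2 was led by retained introns on either measure. Npc2-203 had 58.9, 53.7 and 42.1 TPM, on 1833, 1985 and 1670 counts, and the coding Npc2-201 had 29.7, 20.0 and 16.6 TPM, on 1222, 985 and 873 counts. Each form was highest in replicate 1 by TPM, as was the gene. Srebf1 carried no retained_intron transcript, yet 66.9% ± 4.31 of its TPM was in short processed_transcript forms. By expected counts that share was 19.7% ± 2.98, and the coding Srebf1-201 took 421, 954 and 892 counts. Abca1 was little divided, with 95.6%, 97.6% and 97.2% of its TPM in the coding Abca1-201.

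Very short transcripts shaped the split of other members. Soat1-206 (366 bases, protein_coding) had 14.8, 22.6 and 26.2 TPM in the first tables from 32.0, 44.0 and 60.7 expected counts, out of 4428, 3879 and 4794 for the gene. Few reads thus gave a large abundance once divided by length. Hmgcs1-203 (356 bases) led Hmgcs1 in the second tables with 14.2, 7.76 and 17.2 TPM, against 2.95, 1.66 and 2.31 TPM from 6, 3 and 5 counts in the first. By expected counts Hmgcs1 was led by longer coding transcripts, Hmgcs1-201 in replicates 1 and 3 and Hmgcs1-202 in replicate 2.

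**Figure D5:**
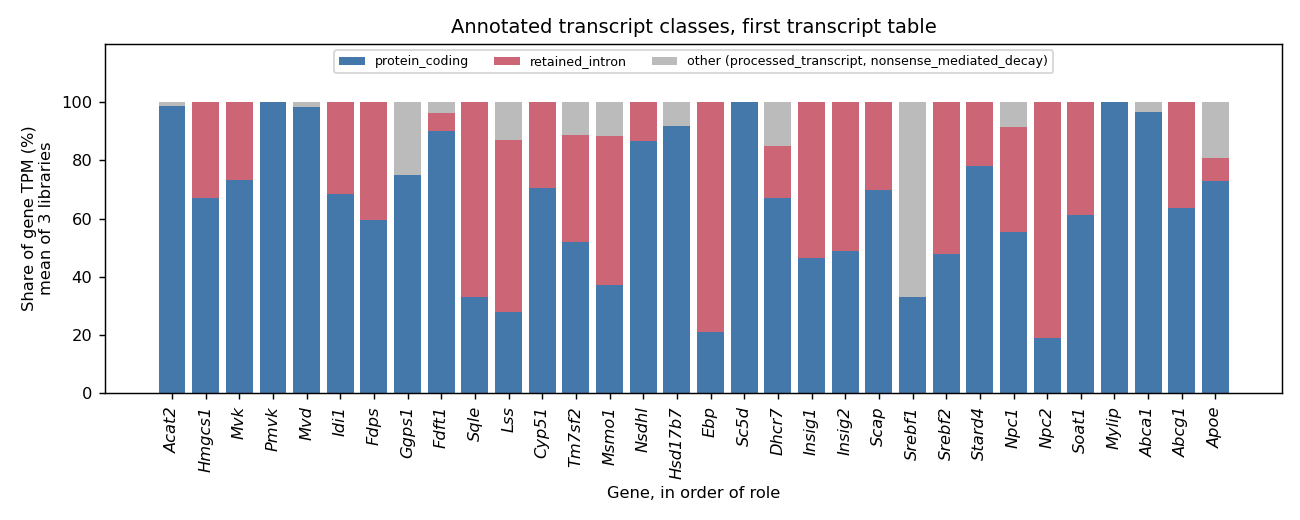
Share of each gene's TPM (percent, mean of 3 libraries) by annotated transcript class in the first transcript tables, genes in order of role, with protein_coding at the bottom, retained_intron in the middle and all other classes on top. Retained_intron forms take the largest shares in Npc2, Ebp, Sqle and Lss, other classes fill most of Srebf1, and Abca1 is nearly all protein_coding.

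Retained-intron shares were computed for a subset. In all 15 members had both transcript classes and at least 5 TPM in every library, and their median share was 45.7%, 40.3% and 37.1% in replicates 1, 2 and 3, a mean of 41.0% ± 4.36. Over all 4726 genes that met the same rule it was 46.9%, 47.7% and 43.2%, a mean of 46.0% ± 2.42, close to the members' values in replicate 1. Ebp (79.1% ± 9.59) and Sqle (67.0% ± 2.31) fell outside the rule through their TPM. Npc2 (81.0% ± 2.10), Lss (59.2% ± 8.66) and Insig1 (53.6% ± 3.63) had the highest shares, and Fdft1 (6.23% ± 5.49), Apoe (8.05% ± 2.28) and Cyp51 (29.4% ± 6.89) the lowest. By expected counts the members' median was 21.2%, against 29.0% over all eligible genes, and the highest shares were those of Lss (77.3%), Msmo1 (73.0%) and Npc2 (67.7%). The share of Insig1 was 19.7% by counts.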

How the data were processed

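Per the file headers, the deposited gene tables and first transcript tables hold expected counts (estimated, not always whole), TPM and lower and upper bounds of an interval around TPM. The second transcript tables hold TPM and estimated counts of another quantification, per the file headers. The deposited notes give mm10 and GENCODE M21, with the first tables derived from transcriptome alignments and the second from reads and an index. No aligner, version or strandedness is named in the sources used here. Rows that name no annotated gene held 1.75%, 0.396% and 0.239% of expected counts and were left out.

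Expected counts were rounded for edgeR 4.0.16 (R 4.3.3), with filterByExpr, TMM and an intercept-only dispersion fit that was tested on simulated data. Deviations used log2 CPM with a prior count of 2, and levels log2(TPM + 1). DESeq2 1.42.0 gave alternative size factors and dispersions, and Python 3.11.15 the rest. With 1 condition no group comparison or test was made. All 33 members were named. Outside them, the 5 highest and the undetected of a list of 40 were to be named, and members by leading transcript, the 3 highest and lowest shares or BCV, and over 2-fold differences between quantifications. Some genes of the lists are not reported here. Members and lists were chosen with earlier results of these data known. The Hmgcs1 promoter met the printing rule (a TCACNCCAC match), and those of Insig1, Srebf1 and Abca1 were chosen after their values were seen, as was the GC and length trend removal. The Insig1 window was trimmed to 201 bases so that it ends before the annotated start. The windows of Hmgcs1, Srebf1 and Abca1 kept their 250 bases.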

Additional observations from a re-analysis of the deposited data

How the results depend on the processing

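Of 69 alternative values for 13 results, 57 stayed within the spread between libraries or within 1.5 times of a count, and 12 moved. A pseudocount of 0.1 gave medians of 2.15 for the mevalonate group and 2.41 for the squalene and sterol group. Detected members alone gave 2.81 for the squalene and sterol group and 5.65 for the transport group. The second transcript tables gave 3.14 (mevalonate), 3.07 (squalene and sterol), 4.72 (sensing), 5.50 (transport) and 6.64 (efflux), all higher, while the efflux minus synthesis difference was 3.54. Members above the median BCV numbered 2 without a filter on low counts, where the median is that of more low genes, and 16 with it. The median retained-intron share was 21.2% by expected counts. With the GC and length trend removed, chosen after seeing the data, the synthesis deviation in replicate 1 was -0.02, against 0.03. Leaving out 1 library at a time gave 30 to 31 members detected, medians of 2.38 to 2.45 (mevalonate), 2.59 to 2.68 (squalene and sterol), 4.32 to 4.47 (sensing), 4.89 to 5.09 (transport) and 6.06 to 6.36 (efflux), and differences of 3.43 to 3.81. It gave 10 to 16 members above the median BCV, with 10 reached without replicate 2, then 11 to 14 shared leading transcripts and retained-intron shares of 38.7% to 43.0%. Other causes were not tested. Depth limits Ch25h and the members with under 100 counts most.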
